A study of Mus musculus with 14 samples.

Results

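The 34 genes described here encode proteins that move ions and water across the colonocyte, the absorptive surface cell of the colon, together with the hormones and regulators that set this traffic. They were taken by gene name, 34 of the 55889 genes in the table of mice without dextran sulfate sodium (DSS) and 34 of the 54721 genes in the table of mice after DSS, and each was found on 1 row of both tables. The study sequenced RNA from the intestine of WT mice and of mice with a germline deletion of the miR-29ab1 cluster (miR-29ab1-/-) on the C57BL/6N strain, aged 8 to 12 weeks by its methods. DSS is a sulfated polysaccharide that damages the colon epithelium when given in drinking water. Without DSS there were 4 WT and 4 miR-29ab1-/- mice, and in a separate experiment there were 3 WT and 3 miR-29ab1-/- mice after 3 days of 3.5% DSS. The deletion was in all cells of the animal. The sequenced RNA comes from a mix of cells, so that fewer cells of a type and less RNA per cell cannot be told apart. The labels name the tissue as crypts of the small intestine and the study names it as colon.

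In the colon, sodium and chloride enter the surface cell through paired exchangers, sodium also enters through an aldosterone-controlled channel, and water follows the salt. Carbonic anhydrases supply the protons and bicarbonate that the exchangers trade. Crypt cells secrete chloride and potassium through channels, guanylin peptides act on a receptor that raises cyclic GMP to favour secretion, and short-chain fatty acids made by bacteria are taken up as fuel. These roles order the account below.

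The deleted cluster encodes miR-29a and miR-29b, small RNAs that lower the messages they pair with. Their mature forms (RefSeq, GRCm38.p6, minus strand) lie at chr6:31062673-31062694 and chr6:31063025-31063047, and they share the seed, bases 2 to 8, shown in capitals.
mmu-miR-29a-3p: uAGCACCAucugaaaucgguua
mmu-miR-29b-3p: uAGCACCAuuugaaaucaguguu
The letters that pair with this seed, TGGTGCT, or TGGTGCTA where an A follows, were searched on the sense strand of the longest annotated 3′ UTR of each protein-coding gene in GENCODE vM21 (GRCm38). A TGGTGCTA also counts as a TGGTGCT. Of the 34 genes, 6 (17.6%) held a match, against 2757 of 21016 genes (13.1%) in all, and 2 (5.88%) held the longer one, against 2.86% of all genes. The 6 are printed because they are the members whose message carries the letters, with the match in capitals and its flanks.
Slc9a3: tagggctctgTGGTGCTgcctccccacc
Sgk1: ccttccaacgTGGTGCTAgctccaggcg
Kcnma1: gaataaatgcTGGTGCTctgaaatgacc
Atp1b1: catcatgcgcTGGTGCTgcgtccttatg
Slc5a8: tacatgccttTGGTGCTAgtatatgtat
Slc16a1: agtctaccagTGGTGCTcagtgcagaca
A match is a stretch of letters and was not tested as a binding site. The deletion itself could not be checked, because *Mir29a* had 0 reads in all 14 libraries and *Mir29b-1* had 0 or 1 read.

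The reads counted on genes totalled 14231157 to 18185020 per library without DSS and 20076719 to 23153149 after DSS. Without DSS every WT library was larger than every miR-29ab1-/- library. Levels are given as CPM, the reads of a gene scaled to the size of its library, with TMM factors fitted to all 14 libraries, and 3 reads correspond to 0.130 to 0.211 CPM before this scaling. Mouse 2 of the miR-29ab1-/- DSS group stood apart with 20.2% of its reads on mitochondrial genes, against 5.70% to 14.8% in the others, and with the lowest TMM factor. Summed over 10 epithelial markers the level was 10200 to 14400 CPM without DSS and 21700 to 27500 CPM after DSS, and 7 smooth muscle markers summed to 2.41 to 6.57 CPM in the 14 libraries. The 5 distal colon markers found (Hox genes) summed to 128 to 412 CPM and 11 small intestine markers to 165 to 515 CPM, of which *Fabp2* alone was at 134 to 453 CPM. The median marker of the distal colon was at 26.7 CPM without DSS and 39.0 CPM after it, and that of the small intestine at 1.54 and 0.486 CPM. *Car1* and *Slc26a3*, the colonocyte markers among the members, were read at 852 CPM or more and at 205 CPM or more in every library.

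Levels per length of gene spanned a wide range among the members without DSS. Over the 8 mice, *Car1*, a cytosolic carbonic anhydrase of surface colonocytes, was highest at 2140 CPM per kb, followed by *Guca2a*, the peptide guanylin, at 1060, and by *Atp1b1*, the beta subunit of the sodium pump, at 365. Of the 34 members, 6 were at 100 CPM per kb or more, 20 from 10 to under 100, 6 from 1 to under 10, and 2 under 1. The sodium channel was uneven, since *Scnn1a* (alpha subunit) stood at 30.4 CPM per kb while *Scnn1b* (beta) stood at 2.70 and *Scnn1g* (gamma) at 0.441. The spread between mice also differed by gene. *Gucy2c*, the guanylin receptor, varied 1.24-fold and *Nr3c2*, the mineralocorticoid receptor, 1.22-fold from the lowest to the highest of the 8 mice, whereas *Atp12a*, the catalytic subunit of the non-gastric proton-potassium pump, varied 12.7-fold and *Car1* 4.40-fold.

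**Figure D1:**
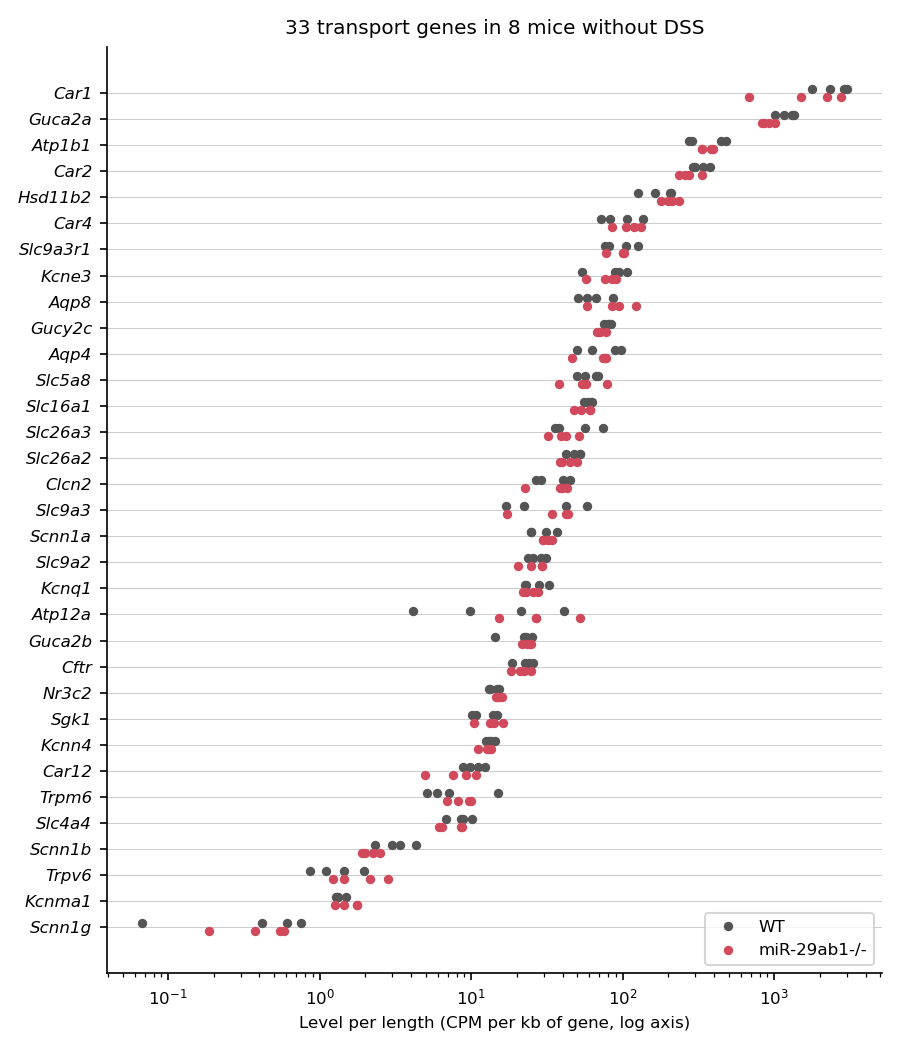
Level per length, in CPM per kb of gene on a log axis, of 33 members in the 8 mice without DSS, sorted by mean, with 1 point per mouse and the genotypes in 2 colours. The points of the genotypes overlap for every gene shown but Guca2a, from Car1 at 2140 to Scnn1g at 0.441 CPM per kb on average, and Slc26a6 is left out because it had 0 to 3 reads per library.

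The first comparison asks whether loss of the cluster shifts these genes in mice without DSS. *Guca2a* was lower in miR-29ab1-/- mice by 1.34-fold and *Scnn1b* by 1.5-fold, and these were the only 2 of the 33 members tested with an unadjusted p under 0.05 in edgeR's quasi-likelihood test, the cutoff the study used. That cutoff was passed downward by 1.58% and upward by 2.09% of the 15441 genes tested, and no member passed it upward. No member passed an adjusted p under 0.05, which 0.0194% of all genes did. DESeq2 also gave 0 members at that threshold, where 0.149% of all genes passed. The median log2 difference of the members was -0.08, against -0.002 over all genes, and no member's genotypes were without overlap on the scale of that table, against 2.03% of all genes. Without miR-29ab1-/- mouse 4 the count at the unadjusted cutoff was 4, where 3.36% of all genes reached it.

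After DSS, 3 of the 34 members had an unadjusted p under 0.05. The exchanger *Slc9a3* was 1.57-fold higher in miR-29ab1-/- mice, where 3.98% of the 14908 genes tested were higher, and the cotransporters *Slc4a4* and *Slc5a8* were 1.45-fold and 1.21-fold lower, where 3.25% of all genes were. None passed an adjusted p under 0.05 by edgeR, where 0.0134% of all genes did, or by DESeq2, where 0.396% did. With no filter on low counts *Slc4a4* passed it (adjusted p = 0.024), where 0.169% of the 27172 genes tested did. Genotypes did not overlap for 3 members, *Slc9a3*, *Slc4a4* and *Nr3c2*, or 3 of 34 where the share was 11.6% over all genes. The median log2 difference was -0.09, against -0.005 over all genes. The summed epithelial markers were 21700 to 24500 CPM in WT DSS and 23000 to 27500 CPM in miR-29ab1-/- DSS mice. With that sum as a covariate, 2 members passed the unadjusted cutoff, where 2.7% of all genes did. The count was 6 without WT DSS mouse 2, 5 without WT DSS mouse 3 and 7 without miR-29ab1-/- DSS mouse 3, and the share of all genes past that cutoff in these fits was 7.09%, 6.91% and 16.6%.

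**Figure D2:**
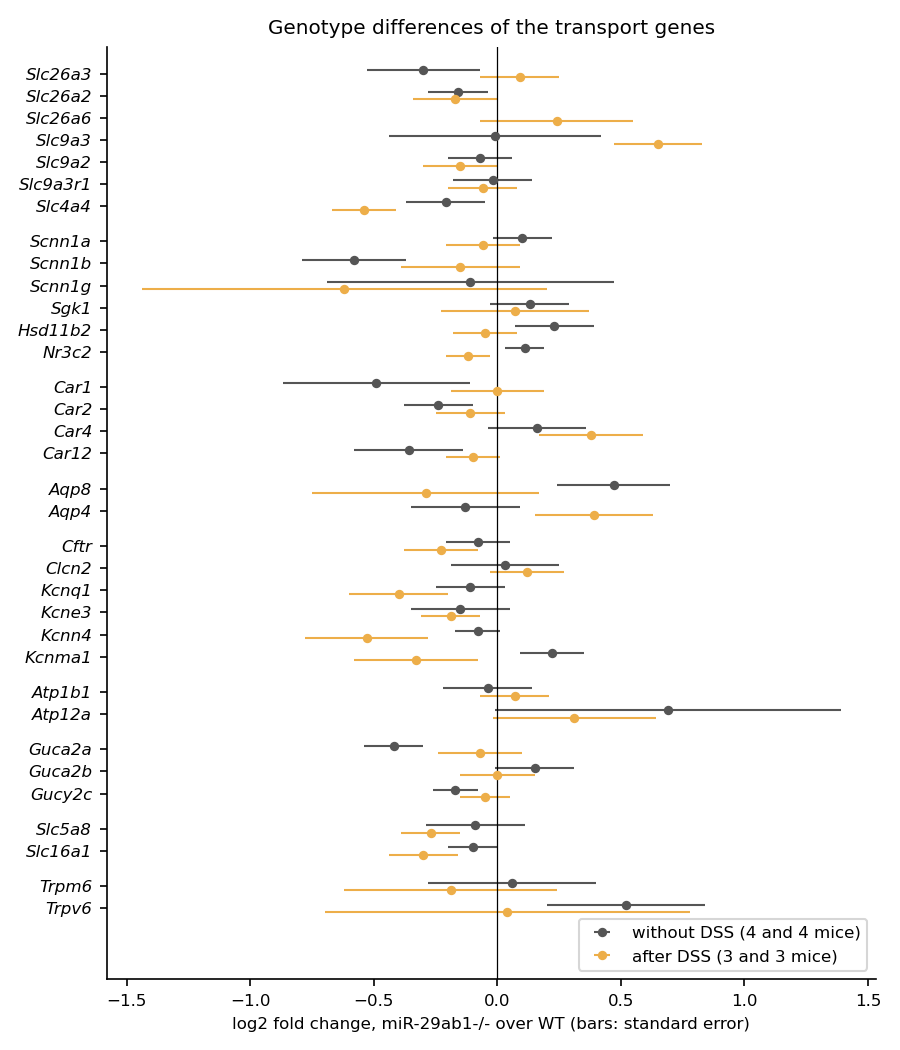
Log2 fold change of miR-29ab1-/- over WT mice for each member, grouped by role, with bars of 1 standard error, without DSS (grey, 4 and 4 mice) and after DSS (yellow, 3 and 3 mice). Points fall on both sides of 0. Guca2a and Scnn1b lie below 0 without DSS, and after DSS Slc9a3 lies above 0 and Slc4a4 below it, none with an adjusted p under 0.05.

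Whether the genotype difference differed between the experiments was tested as an interaction in a fit of all 14 mice. *Kcnma1*, a large-conductance potassium channel of the secretory crypt, was the only member of 34 with an unadjusted p under 0.05, at a difference of -0.55 on the log2 scale, and 4.03% of the 16370 genes tested reached that cutoff. No gene passed an adjusted p under 0.05 by edgeR or DESeq2, while 660 genes had an unadjusted p under 0.05 by edgeR and 700 by DESeq2.

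The mice after DSS were also set against those without DSS within each genotype. In WT mice 13 of 33 members were higher and 2 lower at an adjusted p under 0.05, beside 20.2% of all genes that were higher and 18.1% that were lower. Among miR-29ab1-/- mice 14 of 33 were higher and 5 lower, against 23.2% and 22.7% of all genes. *Slc26a6* is left out of these counts for a reason given with its values. The DSS treatment, the separate experiment and the separate counting of its table cannot be told apart in any of these values. The summed epithelial markers moved with them: all 10 were higher after DSS in both genotypes, by a median of 0.78 on the log2 scale in WT and 1.01 in miR-29ab1-/- mice, against a median of 0.39 and 0.41 over the 33 members. Of the members that rose, 7 in WT and 5 in miR-29ab1-/- mice rose by more than the median epithelial marker. With total counts in place of TMM, the log2 change of the median gene shifted by -0.24 in WT and -0.36 in miR-29ab1-/- mice, and the members called, *Slc26a6* included, became 10 higher and 4 lower in WT and 7 higher and 8 lower in miR-29ab1-/- mice, against 14 and 2, and 15 and 5, with TMM. Under that scaling 10.3% of all genes were higher and 29.2% lower in WT, and 10.5% and 41.5% in miR-29ab1-/- mice.

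**Figure D3:**
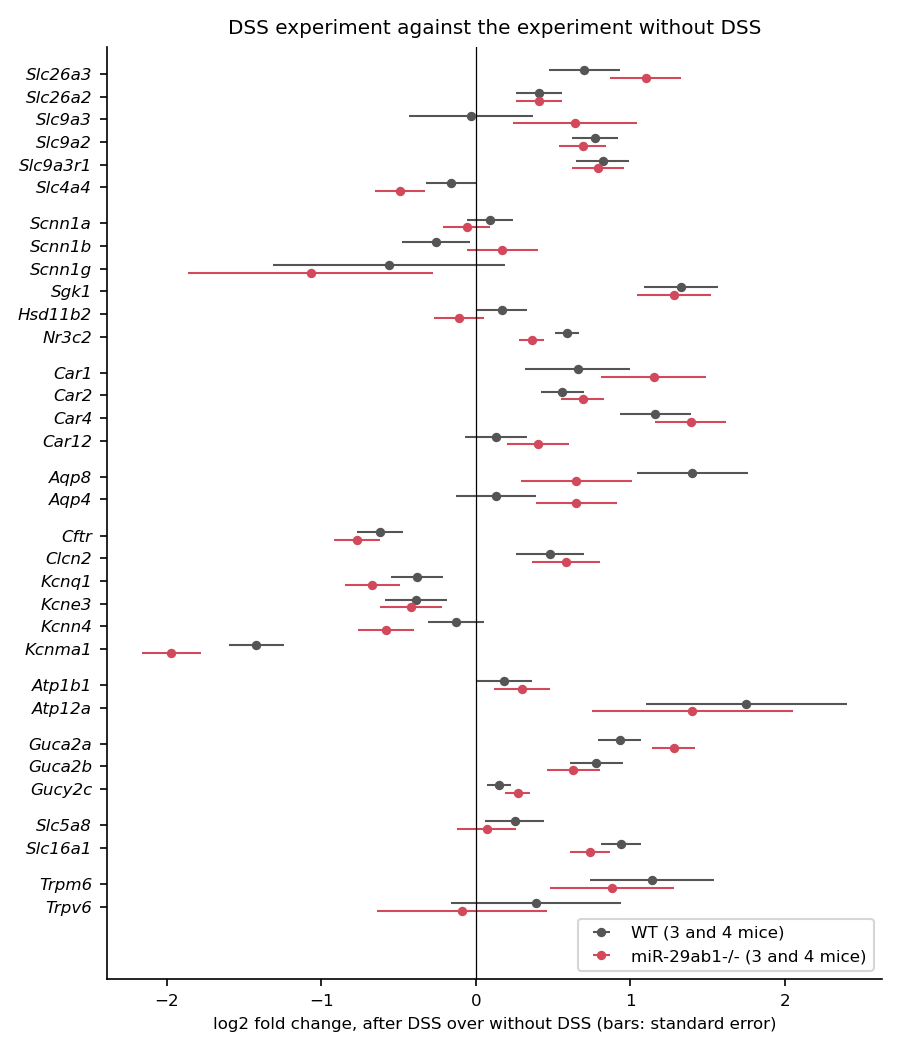
Log2 fold change of mice after DSS over mice without DSS for 33 members, grouped by role, in WT (grey) and miR-29ab1-/- mice (red), with bars of 1 standard error and 3 and 4 mice a side. Guca2a, Guca2b, Car4, Sgk1 and Slc16a1 lie above 0 and Kcnma1 and Cftr below 0 in both genotypes.

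Among the exchangers, *Slc26a3* (chr12:31390871-31473917, plus strand) trades luminal chloride for bicarbonate and is the main chloride absorber of the colon. Without DSS it was read at 227, 358, 241 and 474 CPM in WT mice and at 205, 267, 328 and 249 CPM in miR-29ab1-/- mice, and after DSS at 523, 509 and 549 CPM in WT and at 438, 687 and 556 CPM in miR-29ab1-/- mice. The genotypes overlapped in both experiments, and within each genotype every mouse after DSS was above every mouse without. The log2 genotype difference was -0.30 ± 0.23 (SE, unadjusted p = 0.22) without DSS and 0.09 ± 0.16 (unadjusted p = 0.61) after it. *Slc26a3* rose 1.62-fold after DSS in WT (adjusted p = 0.030) and 2.14-fold in miR-29ab1-/- mice (adjusted p = 0.0018).

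*Slc9a3* (NHE3; chr13:74121457-74169442, plus strand) trades luminal sodium for protons and holds a match printed above. Its levels were 93.7, 318, 122 and 232 CPM in WT and 95.4, 187, 241 and 232 CPM in miR-29ab1-/- mice without DSS. After DSS they were 155, 166 and 240 CPM in WT and 292, 331 and 260 CPM in miR-29ab1-/- mice. All 3 miR-29ab1-/- mice were then above all 3 WT mice, whereas without DSS the genotypes covered the same range. The log2 difference after DSS was 0.65 ± 0.18 (unadjusted p = 0.0052, adjusted p = 0.65), and without DSS -0.01 ± 0.43 (unadjusted p = 0.98). In the fit of all 14 mice, whose spread includes the wide spread without DSS, the same difference after DSS had an unadjusted p of 0.16, and the interaction had 0.26. Without the library that stood apart, the difference after DSS was 0.56 (unadjusted p = 0.021). *Slc9a3* passed the test of DSS against no DSS in neither genotype (adjusted p = 0.96 in WT and 0.21 in miR-29ab1-/- mice).

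*Slc4a4*, the sodium bicarbonate cotransporter of the basolateral membrane, was at 114, 99.4, 96.8 and 77.3 CPM in WT and at 69.1, 72.4, 97.2 and 97.9 CPM in miR-29ab1-/- mice without DSS. The DSS groups read 96.3, 89.1 and 74.5 CPM in WT and 55.4, 54.3 and 69.4 CPM in miR-29ab1-/- mice. The genotypes overlapped without DSS, and after DSS every miR-29ab1-/- mouse was below every WT mouse. The log2 difference after DSS was -0.54 ± 0.13 (unadjusted p = 0.0027, adjusted p = 0.65) and ranged from -0.66 to -0.38 over 12 alternatives, all with an unadjusted p of 0.013 or less. The interaction was not past the cutoff (-0.33 ± 0.22, unadjusted p = 0.15). *Slc4a4* fell after DSS in miR-29ab1-/- mice (1.41-fold lower, adjusted p = 0.019), and in WT mice it had a log2 change of -0.16 (adjusted p = 0.43). Its annotated length was 11333 bases in the table without DSS and 10815 in the other.

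The scaffold *Slc9a3r1* (NHERF1), which anchors *Slc9a3* and *Cftr* at the brush border, had the highest level per length of this group. It was read at 147, 202, 156 and 242 CPM in WT and at 150, 194, 195 and 194 CPM in miR-29ab1-/- mice without DSS, and after DSS at 283, 319 and 385 CPM and at 280, 346 and 325 CPM. All 6 mice after DSS lay above all 8 without, and it rose 1.76-fold in WT (adjusted p = 0.0016) and 1.73-fold in miR-29ab1-/- mice (adjusted p = 0.0013). *Slc9a2* (NHE2), another sodium-proton exchanger, rose 1.70-fold and 1.62-fold, and the sulfate transporter *Slc26a2* rose 1.33-fold in each genotype (adjusted p = 0.043 and 0.037). Their genotype differences, and that of *Slc9a3r1*, were between -0.17 and -0.02 on the log2 scale with unadjusted p of 0.21 or more.

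*Slc26a6*, another anion exchanger (chr9:108853283-108913049, plus strand), had 1, 1, 0 and 0 reads in WT and 1, 0, 0 and 3 reads in miR-29ab1-/- mice without DSS, too few to be tested. After DSS it had 46, 50 and 40 reads in WT and 55, 49 and 38 reads in miR-29ab1-/- mice. No change is drawn from this, because the low reading was not confined to it. *Uqcrc1*, a neighbour that encodes a mitochondrial respiratory subunit, had 183 to 336 reads without DSS and 9505 to 12746 after DSS, and of 9254 genes at 10 CPM or more after DSS, 51 had at most 3 reads in every library without DSS. Within 200 kb of the other 33 members, no gene at 10 CPM or more after DSS was over 16-fold lower without DSS. For *Slc9a2*, *Slc4a4*, *Nr3c2*, *Aqp4*, *Cftr* and *Kcnma1* the window held no gene at that level, so the check could not speak for them. It also did not look for genes read low after DSS. After DSS the genotypes overlapped for *Slc26a6* (log2 difference 0.24 ± 0.31, unadjusted p = 0.46).

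The sodium channel and its aldosterone control gave the other genotype difference without DSS. *Scnn1b* (chr7:121865038-121918514, plus strand), the beta subunit, was at 11.3, 6.07, 7.89 and 8.85 CPM in WT and at 5.02, 6.58, 5.93 and 5.25 CPM in miR-29ab1-/- mice. Only WT mouse 2 lay within the range of the miR-29ab1-/- mice, and WT mouse 1 was the highest. The log2 difference was -0.58 ± 0.21 (unadjusted p = 0.018, adjusted p = 1), and without WT mouse 1 it was -0.40 (unadjusted p = 0.073). After DSS the levels were 9.40, 6.21 and 5.66 CPM in WT and 5.93, 6.27 and 7.01 CPM in miR-29ab1-/- mice, which overlapped (unadjusted p = 0.54). *Cog7*, on the opposite strand over part of *Scnn1b*, had 632 to 969 reads per library without DSS, and since the use of strand in counting is not given in the sources used here, reads of the pair may not be fully told apart. The same limit holds for *Clcn2* with *Polr2h* (283 to 418 reads), *Atp1b1* with *Nme7* (103 to 203) and *Kcnq1* with *Kcnq1ot1* (55 to 133).

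*Hsd11b2*, which inactivates glucocorticoids so that aldosterone can act, was the highest of this group per length. It was at 375, 301, 232 and 382 CPM in WT and at 327, 432, 366 and 389 CPM in miR-29ab1-/- mice without DSS, and at 385, 381 and 321 CPM and at 316, 329 and 405 CPM after DSS. These ranges overlapped in every comparison, and none of its 5 tests had an unadjusted p under 0.17. *Sgk1*, an aldosterone-induced kinase that keeps the channel at the membrane and holds the longer match, rose 2.51-fold after DSS in WT (adjusted p = 0.00097) and 2.42-fold in miR-29ab1-/- mice (adjusted p = 0.00083). It was at 72.6, 52.3, 49.6 and 68.2 CPM in WT and at 51.4, 79.0, 68.8 and 65.6 CPM in miR-29ab1-/- mice without DSS, and at 109, 180 and 168 CPM and at 101, 181 and 200 CPM after DSS, with every mouse after DSS above every mouse without. Its genotype difference was 0.13 ± 0.16 without DSS and 0.07 ± 0.30 after it on the log2 scale. The receptor *Nr3c2* was at 86.5, 95.3, 85.0 and 99.2 CPM in WT and at 99.1, 96.3, 94.9 and 104 CPM in miR-29ab1-/- mice without DSS, below all 6 mice after DSS. It rose 1.51-fold in WT (adjusted p = 7.6e-05) and 1.29-fold in miR-29ab1-/- mice (adjusted p = 0.0021). The rise in miR-29ab1-/- mice was 0.36 on the log2 scale and was 0.00 with total counts in place of TMM, a scaling that moved the median of all genes by -0.36. After DSS its 3 miR-29ab1-/- mice, at 119, 130 and 131 CPM, were below the WT mice at 140, 134 and 139 CPM, a log2 difference of -0.12 ± 0.09 (unadjusted p = 0.19). *Scnn1a* and *Scnn1g* passed no test, and *Scnn1g* was read at 2.24 CPM or less in every library.

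The carbonic anhydrases were led by *Car1* (chr3:14766216-14808368, minus strand). Without DSS it was at 2200, 2920, 3750 and 3580 CPM in WT and at 852, 2760, 3410 and 1860 CPM in miR-29ab1-/- mice. Following DSS, *Car1* stood at 4090, 4820 and 5810 CPM in WT and at 4510, 5640 and 4630 CPM in miR-29ab1-/- mice. The genotypes overlapped in both experiments, miR-29ab1-/- mouse 1 being the lowest of all, and all 6 mice after DSS were above all 8 without. The log2 genotype difference was -0.49 ± 0.38 (unadjusted p = 0.23) without DSS and 0.00 ± 0.19 (unadjusted p = 0.99) after it. *Car1* rose 2.22-fold after DSS in miR-29ab1-/- mice (adjusted p = 0.014), and in WT mice it was 1.58-fold higher without passing the test (adjusted p = 0.14). The interaction, 0.49 ± 0.49, had an unadjusted p of 0.33, so the genotypes were not shown to differ in it.

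*Car4*, anchored on the luminal membrane, rose 2.23-fold in WT (adjusted p = 0.0015) and 2.62-fold in miR-29ab1-/- mice (adjusted p = 0.00026). It was at 142, 209, 161 and 268 CPM in WT and at 234, 261, 167 and 206 CPM in miR-29ab1-/- mice without DSS, and at 409, 360 and 538 CPM and at 438, 715 and 555 CPM after DSS, with no overlap between the experiments. *Car2*, the other abundant cytosolic form, rose 1.47-fold and 1.62-fold (adjusted p = 0.0064 and 0.0011). *Car12*, on the basolateral membrane, passed no test, with 37.4 to 93.0 CPM without DSS and 73.1 to 96.1 CPM after DSS. By genotype the lowest unadjusted p of these 3 genes was 0.099, for *Car2* without DSS, at a log2 difference of -0.24 ± 0.14.

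Of the aquaporins, the water channel *Aqp8* of the surface cell was at 79.4, 137, 91.6 and 105 CPM in WT and at 150, 194, 135 and 91.3 CPM in miR-29ab1-/- mice without DSS. After DSS it was at 249, 144 and 422 CPM in WT and at 152, 218 and 300 CPM in miR-29ab1-/- mice. The genotypes overlapped in both experiments, with log2 differences of 0.47 ± 0.23 (unadjusted p = 0.066) and -0.29 ± 0.46 (unadjusted p = 0.56). *Aqp8* rose 2.64-fold after DSS in WT mice (adjusted p = 0.0093), and without WT DSS mouse 3, the highest, the adjusted p was 0.054. In miR-29ab1-/- mice it was 1.56-fold higher (adjusted p = 0.16), and the interaction was -0.75 ± 0.51 (unadjusted p = 0.16). *Aqp4*, a basolateral water channel, was at 393, 607, 313 and 556 CPM in WT and at 475, 480, 462 and 290 CPM in miR-29ab1-/- mice without DSS, and at 416, 692 and 427 CPM and at 835, 639 and 541 CPM after DSS. In WT mice these ranges overlapped and in miR-29ab1-/- mice they did not, and it passed no test (adjusted p = 0.72 in WT and 0.052 in miR-29ab1-/- mice). Its annotated length was 6233 bases in the table without DSS and 5082 in the other.

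Of the 6 genes of chloride and potassium channels, *Cftr* and *Kcnma1* fell after DSS in both genotypes. *Kcnq1* and *Kcnn4* fell in miR-29ab1-/- mice, *Clcn2* rose in miR-29ab1-/- mice and *Kcne3* passed no test. *Kcnma1* (chr14:23289431-24014491, minus strand), which holds a match, was at 25.2, 21.9, 22.3 and 21.6 CPM in WT and at 30.1, 29.9, 24.6 and 21.3 CPM in miR-29ab1-/- mice without DSS. In the DSS groups it fell to 7.84, 7.43 and 10.3 CPM in WT and to 8.95, 5.31 and 6.07 CPM in miR-29ab1-/- mice. The genotypes overlapped in each experiment, and all 6 mice after DSS lay far below all 8 without. *Kcnma1* fell 2.67-fold in WT (log2 -1.42 ± 0.18, adjusted p = 4.9e-05) and 3.90-fold in miR-29ab1-/- mice (log2 -1.97 ± 0.19, adjusted p = 2.2e-06). The genotype difference was 0.22 ± 0.13 without DSS (unadjusted p = 0.12) and -0.33 ± 0.25 after it (unadjusted p = 0.21), and the interaction of -0.55 ± 0.25 had an unadjusted p of 0.047 and an adjusted p of 0.99. Leaving out a mouse moved that unadjusted p above 0.05 for 8 of the 14 mice, and without the library that stood apart it was 0.15. The count of members past the cutoff ran from 0 to 4 over these fits, with 4 when WT DSS mouse 2 was left out, where 4.42% of all genes passed it.

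*Cftr*, the apical chloride channel, fell 1.54-fold in WT (adjusted p = 0.0040) and 1.71-fold in miR-29ab1-/- mice (adjusted p = 0.00065), from 142 to 199 CPM without DSS to 75.9 to 119 CPM after it, with no overlap. The 7 stem and proliferation markers of the crypt also moved with DSS, from a sum of 398 to 551 CPM without it to 233 to 365 CPM after it. Of the 7, 3 fell in WT and 6 in miR-29ab1-/- mice, beside 18.1% and 22.7% of all genes. The stem cell marker *Lgr5* was at 9.77 to 22.4 CPM without DSS and 0.179 to 4.25 CPM after it. *Pcna*, of the same list, averaged 89.8 CPM without DSS and 96.2 CPM after it. The part of these markers in the fall of *Kcnma1* and *Cftr* was not tested. *Kcnq1* and *Kcnn4*, basolateral potassium channels that drive chloride exit, fell in miR-29ab1-/- mice, 1.59-fold (adjusted p = 0.0064) and 1.49-fold (adjusted p = 0.016). In WT mice their log2 changes were -0.38 (adjusted p = 0.096) and -0.13 (adjusted p = 0.59), and the interactions of -0.29 and -0.45 had unadjusted p of 0.26 and 0.093, so a difference between the genotypes was not shown. *Kcne3*, the partner subunit of *Kcnq1* and the highest of this group per length, was at 96.3, 169, 157 and 189 CPM in WT and at 160, 152, 136 and 101 CPM in miR-29ab1-/- mice without DSS. After DSS it was at 133, 98.8 and 119 CPM in WT and at 106, 94.5 and 107 CPM in miR-29ab1-/- mice. These ranges overlapped throughout, and its adjusted p after DSS was 0.14 in WT and 0.10 in miR-29ab1-/- mice. The chloride channel *Clcn2* rose 1.49-fold in miR-29ab1-/- mice (adjusted p = 0.042) and was 1.39-fold higher in WT (adjusted p = 0.098).

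**Figure D4:**
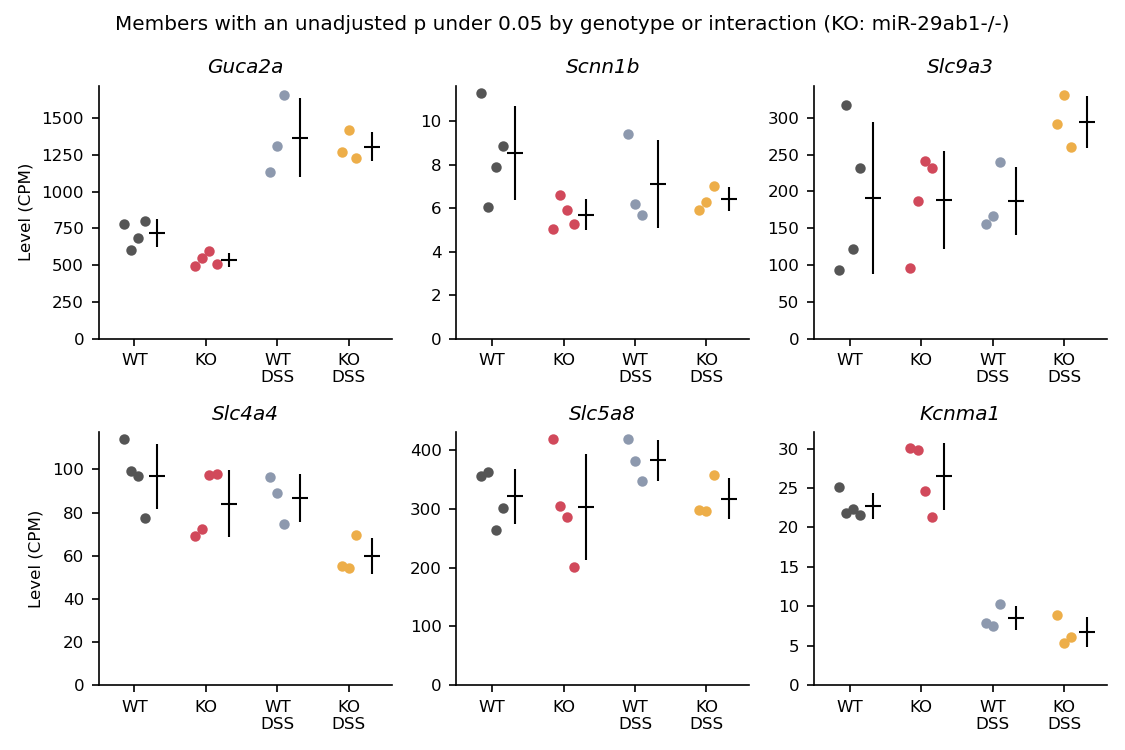
Level in CPM of the 6 members with an unadjusted p under 0.05 for a genotype difference or the interaction, in each mouse (points) of the 4 groups, with the mean and SD beside them. In Slc9a3 and Slc4a4 the genotypes separate after DSS, in Guca2a and Scnn1b the shift is without DSS, and Kcnma1 falls in both genotypes after DSS.

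The ATPase subunits passed no test. *Atp1b1*, which holds a match, was at 884, 1370, 842 and 1470 CPM in WT and at 1020, 1020, 1180 and 1210 CPM in miR-29ab1-/- mice without DSS. After DSS it was at 1320, 1480 and 1090 CPM in WT and at 1370, 1410 and 1320 CPM in miR-29ab1-/- mice. The genotypes overlapped in both experiments. The WT mice with and without DSS overlapped too, while the 3 miR-29ab1-/- mice after DSS were above the 4 without, and the lowest of its adjusted p in the DSS contrasts was 0.19. *Atp12a* was at 39.1, 164, 16.5 and 85.8 CPM in WT and at 61.3, 108, 108 and 209 CPM in miR-29ab1-/- mice without DSS, and at 161, 246 and 364 CPM and at 259, 416 and 285 CPM after DSS. It was 3.37-fold higher after DSS in WT (adjusted p = 0.055) and 2.64-fold higher in miR-29ab1-/- mice (adjusted p = 0.10). The ranges with and without DSS overlapped in WT mice and did not in miR-29ab1-/- mice.

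Guanylin signalling held the smallest p by genotype without DSS. *Guca2a* (chr4:119637704-119639471, plus strand) was at 782, 603, 685 and 802 CPM in WT and at 492, 550, 597 and 507 CPM in miR-29ab1-/- mice. The lowest WT mouse and the highest miR-29ab1-/- mouse lay next to each other, and with TMM factors fitted to that table alone they overlapped. The log2 difference was -0.42 ± 0.12 (unadjusted p = 0.0059, adjusted p = 1), and it kept its direction and an unadjusted p of 0.022 or less over 15 alternatives. Of 6 goblet cell markers, *Clca1* averaged 18000 CPM in WT and 28100 CPM in miR-29ab1-/- mice and *Fcgbp* 13300 and 17200 CPM, while *Spdef* averaged 216 and 208 CPM and the mucin *Muc2* 85.7 and 81.4 CPM, a low reading beside its 4000 to 8990 CPM after DSS. *Zg16* averaged 1560 CPM in WT and 1580 CPM in miR-29ab1-/- mice, and *Tff3* 604 and 632 CPM. The 6 summed to 19700 to 49000 CPM in WT and 41100 to 57200 CPM in miR-29ab1-/- mice, mostly from *Clca1* and *Fcgbp*. The part of these markers in the *Guca2a* difference was not tested. After DSS *Guca2a* was at 1130, 1310 and 1660 CPM in WT and at 1270, 1420 and 1230 CPM in miR-29ab1-/- mice, with the genotypes overlapping (unadjusted p = 0.70) and an interaction of 0.36 ± 0.21 (unadjusted p = 0.10). It rose 1.90-fold in WT (adjusted p = 0.00022) and 2.43-fold in miR-29ab1-/- mice (adjusted p = 9.2e-06), and every mouse after DSS was above every mouse without.

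Uroguanylin, *Guca2b*, which shares the receptor, lies beside *Guca2a* on chromosome 4 and was far lower per length, at 22.4 CPM per kb. It rose 1.72-fold in WT (adjusted p = 0.0021) and 1.55-fold in miR-29ab1-/- mice (adjusted p = 0.0063), and its genotype difference without DSS, 0.15 ± 0.16 on the log2 scale (unadjusted p = 0.37), was not of the sign of *Guca2a*. *Gucy2c* was at 298 to 332 CPM in WT and at 268 to 305 CPM in miR-29ab1-/- mice without DSS, a log2 difference of -0.17 ± 0.09 (unadjusted p = 0.094). After DSS it rose 1.20-fold in miR-29ab1-/- mice (adjusted p = 0.019) and was 1.11-fold higher in WT (adjusted p = 0.18).

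Of the carriers of short-chain fatty acids, *Slc5a8* takes up butyrate with sodium at the luminal membrane and holds the longer match. It was at 355, 363, 264 and 302 CPM in WT and at 419, 305, 286 and 201 CPM in miR-29ab1-/- mice without DSS. After DSS it was at 418, 382 and 348 CPM in WT and at 298, 296 and 357 CPM in miR-29ab1-/- mice, of which 1 lay within the WT range. The log2 difference after DSS was -0.27 ± 0.12 (unadjusted p = 0.049, adjusted p = 0.67), and it lost the cutoff in 8 of 12 alternatives, among them the epithelial marker sum as covariate (-0.15, unadjusted p = 0.22) and each of WT DSS mice 1 and 2 and miR-29ab1-/- DSS mice 1 and 2 left out. *Slc5a8* passed the test after DSS in neither genotype. *Slc16a1* (MCT1), a proton-coupled carrier, rose 1.91-fold in WT (adjusted p = 6.4e-05) and 1.67-fold in miR-29ab1-/- mice (adjusted p = 0.00027). It was at 271, 259, 244 and 277 CPM in WT and at 269, 234, 268 and 210 CPM in miR-29ab1-/- mice without DSS, and at 525, 506 and 478 CPM and at 360, 367 and 500 CPM after DSS, with no overlap between the experiments. Its log2 genotype difference was -0.10 ± 0.10 without DSS and -0.30 ± 0.14 after it (unadjusted p = 0.36 and 0.065).

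*Trpm6*, a magnesium channel of the apical membrane, was at 115, 45.7, 55.1 and 39.2 CPM in WT and at 63.2, 74.7, 76.7 and 53.6 CPM in miR-29ab1-/- mice without DSS. After DSS it was at 77.8, 164 and 180 CPM in WT and at 75.8, 127 and 168 CPM in miR-29ab1-/- mice. The lowest mouse after DSS lay within the range without DSS in both genotypes. *Trpm6* rose 2.21-fold in WT (adjusted p = 0.041), a call lost in 12 of 20 alternatives, and was 1.85-fold higher in miR-29ab1-/- mice (adjusted p = 0.092). Its annotated length was 7719 bases without DSS and 6508 after it. The calcium channel *Trpv6* was at 2.21 to 15.7 CPM over the 14 mice and passed no test.

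**Figure D5:**
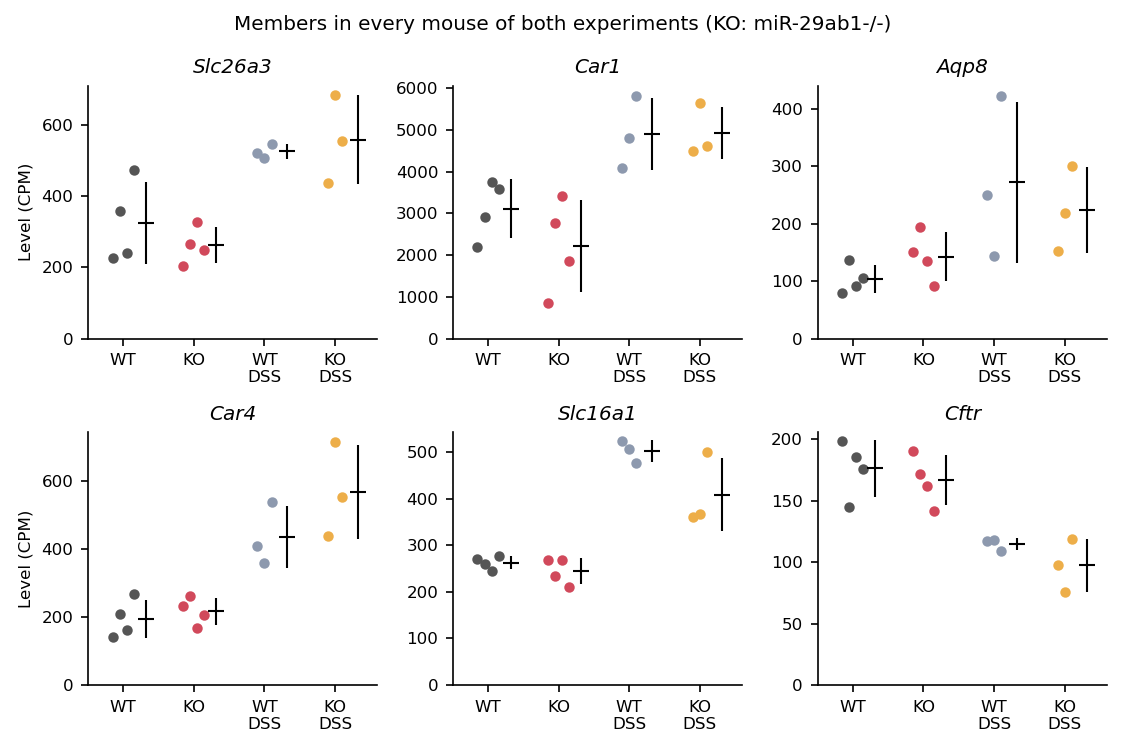
Level in CPM of 6 members in each mouse (points) of the 4 groups, with the mean and SD beside them. Slc26a3, Car1, Car4 and Slc16a1 are higher after DSS, Aqp8 spreads widely after DSS, and Cftr is lower after DSS in both genotypes.

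Across the genotypes, 12 members passed as higher after DSS in both, among them *Slc26a6* from which no change is drawn, and 2 fell in both, *Cftr* and *Kcnma1*. A further 2 passed in WT alone (*Aqp8* and *Trpm6*) and 6 in miR-29ab1-/- mice alone (*Car1*, *Clcn2*, *Gucy2c*, *Kcnn4*, *Kcnq1* and *Slc4a4*), while 12 passed in neither. None of these 8 had an interaction with an unadjusted p under 0.093. Over all genes 20.2% were higher and 18.1% lower in WT, and 23.2% and 22.7% in miR-29ab1-/- mice. The share of all genes that passed in both genotypes or in 1 alone was not counted, so this split is not a result about the members. Without the library that stood apart, 16 members in place of 20 passed in miR-29ab1-/- mice, and 36.5% of all genes passed in that fit.

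The 6 members that hold a match to the miR-29 seed did not share a direction by genotype. Their log2 differences without DSS ran from -0.10 for *Slc16a1* to 0.22 for *Kcnma1*, and after DSS from -0.33 for *Kcnma1* to 0.65 for *Slc9a3*. Of the 6, *Slc9a3* and *Slc5a8* were past the unadjusted cutoff after DSS, in opposite directions, and none was without DSS.

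A further list of 63 genes of the same pathways, of which 49 were tested, was set beside the members. Without DSS, 2 had an unadjusted p under 0.05, both higher in the miR-29ab1-/- group, where 2.09% of all genes were higher and 1.58% lower. The 2 were *Best2*, a channel of goblet cells that conducts bicarbonate (log2 0.58 ± 0.23, unadjusted p = 0.035), and the carbonic anhydrase *Car15* (0.83 ± 0.36, unadjusted p = 0.042), which was at 1.86 CPM or less. After DSS, 7 were lower and none higher, where 3.25% of all genes were lower and 3.98% higher. The 7 were the sodium-proton exchanger *Slc9a8*, the scaffold *Slc9a3r2* (NHERF2), the sulfate exchanger *Slc26a1*, the channel-activating protease *Prss8*, the sodium-potassium-chloride cotransporter *Slc12a2* that loads chloride for secretion, the potassium channel *Kcnk5* and the water channel *Aqp11*. The scaffold *Slc9a3r2* had the smallest p, at 14.6, 10.3 and 13.4 CPM in WT and 7.09, 5.43 and 8.70 CPM in miR-29ab1-/- mice after DSS, with no overlap (log2 -0.85 ± 0.22, unadjusted p = 0.0037, adjusted p = 0.65), while without DSS it was at 20.6 to 25.5 CPM and 21.0 to 27.5 CPM. For *Slc12a2* the levels after DSS were 283, 243 and 253 CPM in WT and 172, 188 and 247 CPM in miR-29ab1-/- mice, of which the highest lay within the WT range (log2 -0.36 ± 0.14, unadjusted p = 0.031). After DSS against no DSS, 12 of the 49 (24.5%) rose and 11 (22.4%) fell in WT mice, beside 20.2% and 18.1% of all genes. In miR-29ab1-/- mice 14 (28.6%) rose and 18 (36.7%) fell, beside 23.2% and 22.7% of all genes.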

How the data were processed

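RNA-seq libraries of 14 mice were analysed. The raw counts per gene were deposited by the authors in 2 tables, 1 per experiment, and the submitters' processing notes name HISAT2 and DESeq2 with no versions used here. The 14 FPKM columns and the authors' own comparison columns (fold changes and p-values) were not used. Of the 34 members, 33 have the positions of GENCODE vM21 (GRCm38) and *Slc4a4* does not.

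Genotypes were compared within each table with edgeR 4.0.16 (R 4.3.3) by its quasi-likelihood test after filterByExpr and TMM scaling, with Benjamini-Hochberg adjustment over all genes tested. The interaction and the DSS contrasts came from 1 model of all 14 mice over genes in both tables. Changes are log2 fold changes with standard errors (SE), and p-values measure only the spread between these samples. Printed levels are CPM on the TMM factors of the 14 libraries, so a pair of groups may overlap on the table's own factors and not on these. The tests were also run on simulated counts with changes put in that were larger than the genotype differences of the members. That run cannot speak for the power to find the smaller differences.

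The members and gene lists were chosen with earlier results of these data known. All 34 members are accounted for. Values in every mouse are given for both markers, for the highest member per length and the smallest p by DSS in each role group, and for members with an unadjusted p under 0.05 by genotype or interaction. Other pathway genes are counted, and those past that cutoff by genotype are named. Alternatives were DESeq2 1.42.0, other scalings and filters, 1 model of 14 mice, the epithelial marker sum as covariate, a replicate block and leaving out each mouse.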

Additional observations from a re-analysis of the deposited data

Results flagged for a closer look

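*Slc9a3r1* in miR-29ab1-/- mouse 1 without DSS was at 150 CPM, while the other 3 mice of its group were at 194 to 195 CPM, so that its gap to the nearest mouse was 0.99 of the group's range. *Aqp4* in miR-29ab1-/- mouse 4 without DSS was at 290 CPM against 462 to 480 CPM in the other 3, a gap of 0.906 of the range. Of 66 groups of 4 mice examined over the members these were the 2 beyond Dixon's critical value, where chance gives about 1 in 20.

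*Kcnma1* had a genotype difference that was lower after DSS than without DSS by a log2 value of -0.55 in the test of the difference itself (unadjusted p = 0.047, adjusted p = 0.99 in edgeR).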

How the results depend on the processing

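Of the values for single genes under an alternative, 674 stayed on their side of the threshold, 33 lost a call, 18 gained a call and 1 reversed. Some of the 674 that had no call changed sign, such as *Slc9a3* by genotype without DSS, at -0.22 to 0.35 on the log2 scale. The reversed value was *Nr3c2* after DSS in miR-29ab1-/- mice, 0.36 on the log2 scale with TMM and 0 with total counts in place of TMM, a scaling added after seeing the data that moved the median of all genes by -0.36.

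Without DSS, the 2 members at an unadjusted p under 0.05 became 4 with DESeq2, where 3.88% of all genes passed. They became 2 to 4 when a mouse was left out, where 3.07% to 4.39% of all genes passed. With a replicate block the count was 4, where 3.52% of all genes passed, and *Scnn1b* had an unadjusted p of 0.052. The replicate numbers did not pair the mice, since the deviations of same-numbered mice correlated at -0.03, 0.149, -0.194 and -0.127 and only number 2 matched its own number best. In the DSS experiment no replicate block was fitted, because the numbers of the columns are not those of the sample titles. After DSS, the count at the adjusted threshold went from 0 to 1 with no filter on low counts, where 0.169% of all genes passed. That member was *Slc4a4*. The 3 at the unadjusted cutoff became 2 to 7 when a mouse was left out, where 3.16% to 16.6% of all genes passed. For the interaction the 1 member became 2 with DESeq2 and 0 with at least 10 counts in every library, where 4.28% and 4% of all genes passed. It became 0 to 4 when a mouse was left out, where 2.42% to 8.82% of all genes passed. For DSS against no DSS, leaving out a mouse gave 13 to 17 members at the adjusted threshold in WT and 16 to 22 in miR-29ab1-/- mice. Over all genes the share at that threshold was 28.2% to 38.7% in WT and 36.5% to 46.4% in miR-29ab1-/- mice. Depth limits the precision for *Scnn1g*, which had 3 to 43 reads per library.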

Other observations

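Some mice without DSS shared low readings of several surface cell genes, a pattern chosen after the values were seen. WT mouse 1, WT mouse 3 and miR-29ab1-/- mouse 1 were the 3 lowest of the 8 for 6 of the 33 members tested (18.2%), namely *Slc26a3*, *Slc9a3*, *Slc9a3r1*, *Scnn1a*, *Clcn2* and *Atp12a*. The same 3 mice were the lowest for 606 of all 15441 genes tested (3.92%) and for 5 of the 10 epithelial markers. They come from both genotypes. They also had the 3 highest sums of 5 fibroblast markers, at 20.9, 18.9 and 31.4 CPM against 3.72 to 17.1 CPM in the other 5 mice, and the part of this in the low readings was not tested.

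Outside the members, *Slc9a3r2* had an interaction of -0.90 on the log2 scale (unadjusted p = 0.0015, adjusted p = 0.99 in edgeR). It fell 1.84-fold after DSS in WT mice (adjusted p = 0.00091) and 3.43-fold in miR-29ab1-/- mice (adjusted p = 2.6e-06). Its annotated length was 2646 bases in the table without DSS and 2257 in the other. *Slc12a2* fell 2.35-fold (adjusted p = 2.7e-05) and 3.00-fold (adjusted p = 2.0e-06), from 531 to 712 CPM in the 8 mice without DSS to 172 to 283 CPM in the 6 after it. Its annotated length was 10920 bases without DSS and 6520 after it, and per length it went from 55.8 to 39.9 CPM per kb in WT and from 55.6 to 31.0 CPM per kb in miR-29ab1-/- mice, so the fall and the change of annotation cannot be told apart. *Kcnk5* went the other way and rose 1.98-fold (adjusted p = 5.3e-06) and 1.72-fold (adjusted p = 2.9e-05).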
